A study of Mus musculus with 14 samples.

Results

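Homeostatic microglia markers are genes that microglia, the resident macrophages of the brain parenchyma, use at high levels in the unperturbed brain. The 9 genes described here, Cx3cr1, Gpr34, Fcrls, Selplg, Tmem119, Olfml3, Slc2a5, Ltc4s and Crybb1, were chosen by name as such markers, and each was found in 1 row of a table of 49315 genes through the GRCm38 annotation. All 9 passed the filter on low counts, as did 15700 genes in all. The libraries came from primary microglia of pups aged postnatal day 6 to 7 on a C57BL/6 background, 7 from TIMP2 knockout (KO) mice and 7 from wild-type (WT) mice. The KO was global, so every cell of a KO pup carried the altered gene, and effects within microglia cannot be told apart from effects of other cells on them before isolation. Each library was an independent isolation from the pooled forebrains of 5 pups of both sexes, purified with CD11b microbeads and then cultured in medium with serum, so a value is an average over animals and cells. Libraries from freshly isolated or in situ microglia were not analysed here, so the level of a marker in culture is given against other genes of the same libraries, and the share kept from the brain was not measured.

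The markers belong to a program that is set by the brain environment. Signals such as transforming growth factor beta and ligands of the colony stimulating factor 1 receptor maintain it, together with the transcription factors PU.1, IRF8, MEF2C and SALL1. Microglia that leave the brain, or that become reactive, are known for a reduced use of many of these genes, and they are therefore read as a measure of how close cells are to the resting state. Cx3cr1 encodes the fractalkine receptor, Gpr34 a receptor for lysophosphatidylserine, and Fcrls an Fc receptor-like scavenger protein. Selplg encodes the selectin ligand PSGL-1, and Tmem119 a membrane protein used to tell microglia from other macrophages. Olfml3 encodes a secreted glycoprotein, Slc2a5 the fructose transporter GLUT5, Ltc4s the enzyme leukotriene C4 synthase and Crybb1 a beta crystallin best known from the lens.

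The 9 genes are protein coding and lie on 6 chromosomes of GRCm38. Tmem119 (ENSMUSG00000054675, chr5:113793729-113800516, minus strand) and Selplg (ENSMUSG00000048163, chr5:113818536-113832644, minus strand) are neighbours with 18 kb between them. Crybb1 (ENSMUSG00000029343, chr5:112255815-112269585, plus strand) is on the same chromosome. Fcrls (ENSMUSG00000015852, chr3:87250758-87263738) and Olfml3 (ENSMUSG00000027848, chr3:103722222-103738001) are both on the minus strand of chromosome 3. Cx3cr1 (ENSMUSG00000052336) spans chr9:119901616-120069879 on the minus strand, and Slc2a5 (ENSMUSG00000028976) spans chr4:150119283-150144169 on the plus strand. Gpr34 (ENSMUSG00000040229, chrX:13632089-13640858, plus strand) lies inside Cask on the opposite strand, with 0 bp of shared exon. Ltc4s (ENSMUSG00000020377, chr11:50236461-50238616, minus strand) shares chromosome 11 with Timp2 at a distance of 68.1 Mb. An antisense gene, Gm26542, overlaps 268 bp or 26.4% of the Ltc4s exons, and the antisense gene Gm33858 overlaps 78 bp of the Cx3cr1 exons. The strand setting of the counting is not given in the sources used here, so the split of reads in these overlaps is uncertain. Gm26542 held a mean of 33.9 counts against 140 for Ltc4s, and Gm33858 a mean of 132 against 43481 for Cx3cr1.

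Promoter windows of 300 bases, from 250 bases before to 50 after the start site, were found in the RefSeq table for 6 of the 9 genes, namely Cx3cr1, Fcrls, Olfml3, Slc2a5, Crybb1 and Ltc4s. The levels of Cx3cr1, Slc2a5 and Crybb1 correlated in pairs over the 14 libraries, as described further on, although their mean levels were far apart. No such pair had an adjusted permutation p under 0.05 without the libraries numbered 1. The windows of these 3 genes are shown because of their correlation over all 14 libraries. They are given 5′ to 3′ on the strand of the gene. Capitals mark the 10 letters that match the loose pattern searched for MEF2, in which the 4 middle bases may be any. The windows lie in RefSeq's GRCm38.p6 at chr9:120068247-120068546 (Cx3cr1, minus strand), chr4:150119094-150119393 (Slc2a5, plus strand) and chr5:112255570-112255869 (Crybb1, plus strand).
Cx3cr1: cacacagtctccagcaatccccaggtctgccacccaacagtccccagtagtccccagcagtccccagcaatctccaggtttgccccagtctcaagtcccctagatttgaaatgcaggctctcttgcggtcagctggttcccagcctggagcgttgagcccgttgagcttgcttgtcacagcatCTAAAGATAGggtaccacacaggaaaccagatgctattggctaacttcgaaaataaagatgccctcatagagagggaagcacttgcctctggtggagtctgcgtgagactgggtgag
Slc2a5: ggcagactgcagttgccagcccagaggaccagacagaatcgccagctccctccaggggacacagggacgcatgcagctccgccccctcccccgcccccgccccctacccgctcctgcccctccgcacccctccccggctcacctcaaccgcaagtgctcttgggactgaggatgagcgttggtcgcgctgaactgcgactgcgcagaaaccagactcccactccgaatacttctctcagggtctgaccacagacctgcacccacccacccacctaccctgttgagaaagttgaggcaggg
Crybb1: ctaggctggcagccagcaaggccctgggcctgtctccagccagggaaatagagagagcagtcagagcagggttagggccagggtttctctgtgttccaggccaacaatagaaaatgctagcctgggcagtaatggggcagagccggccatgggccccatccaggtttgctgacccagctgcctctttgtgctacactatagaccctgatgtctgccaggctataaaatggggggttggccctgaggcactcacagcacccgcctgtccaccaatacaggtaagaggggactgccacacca
The Cx3cr1 window held the letters searched for MEF2 (CTA and TAG with 4 bases of any kind between them), and it was the 1 window of 6 that did. Whether MEF2 binds there was not tested. Of all 32851 promoter windows of this length, 3.69% held them on either strand. None of the 6 windows held the letters searched for PU.1 (GAGGAAGT, in 3.2% of all windows), PU.1 with IRF (GGAA and GAAA with 2 bases of any kind between them, 2.72%), IRF (GAAA repeated after 2 bases of any kind, 3.44%), AP-1 (TGANTCA, 7.81%) or SMAD (GTCTAGAC, 0.213%), each searched on both strands. The PU.1-IRF and IRF letters can match at the same bases. The windows also differed in composition, with 54.3% G and C in Cx3cr1, 65.3% in Slc2a5 and 58.3% in Crybb1 against a median of 52.7% over all windows.

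Between 38875344 and 48070236 reads were counted per library. No pair among the 91 pairs of libraries agreed within sampling noise, the closest having a chi-square of 6.37 per degree of freedom. Timp2 checked the labels. Levels of single genes are given as CPM, that is, read counts scaled to a common library total that is adjusted by TMM factors. Sums of CPM over a list used the library totals without these factors. The 7 KO libraries lay between 120 and 129 CPM of Timp2 and the 7 WT libraries between 398 and 495 CPM. Its log2 fold change was −1.92 (edgeR quasi-likelihood test, adjusted p = 1.53e-12). The 15 pan-macrophage markers, which include Itgam, Aif1, Cd68 and Tyrobp, were all present and summed to between 18983 and 23818 CPM per library. Markers of astrocytes summed to 29.7 to 261 CPM, of neurons to 22.4 to 60 CPM and of border and perivascular macrophages to 450 to 873 CPM, each below the pan-macrophage sum in all 14 libraries. In bulk RNA, fewer cells of a type and less RNA per cell cannot be told apart.

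The first question was how far each marker was present in culture. Scaled to CPM per kb of exon length (TMM-scaled, the scale on which the levels of the markers are compared), the 9 markers of WT cultures covered a 4082-fold range. Fcrls and Cx3cr1 were among the most abundant messages of the cells, Gpr34, Selplg and Olfml3 were at intermediate levels, and Ltc4s, Tmem119, Crybb1 and Slc2a5 were low. Of the 9, 6 lay above the median of all tested genes, which was 3.34 CPM per kb, and 3 lay below it.

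Among the receptors, Fcrls was the highest marker at 448 ± 46.9 CPM per kb (SD, n = 7), in the 99.6th percentile of tested genes. Cx3cr1 followed at 213 ± 47.4 CPM per kb (SD, n = 7), in the 99th percentile, and Gpr34 at 56.3 ± 11.1 CPM per kb (SD, n = 7), in the 95.2nd. These 3 receptor levels compare with medians of 574 CPM per kb for the pan-macrophage markers and 154 CPM per kb for 8 reference genes such as Actb and Tbp. Fcrls thus reached 78% of the pan-macrophage median, Cx3cr1 37.2% and Gpr34 9.81%.

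The membrane proteins Selplg and Tmem119, encoded by neighbouring genes, were far apart in level. Selplg was at 30.5 ± 1.81 CPM per kb (SD, n = 7; 90.3rd percentile) and Tmem119 at 2.11 ± 0.734 CPM per kb (SD, n = 7; 42.4th percentile). Tmem119, the most used microglia marker of the set, reached 0.368% of the pan-macrophage median. The secreted protein gene Olfml3 was at 15.7 ± 6.71 CPM per kb (SD, n = 7; 81.1st percentile).

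The enzyme gene Ltc4s was at 3.41 ± 0.485 CPM per kb (SD, n = 7), in the 50.3rd percentile. Crybb1 was at 0.96 ± 0.373 CPM per kb (SD, n = 7; 31st percentile) and the transporter gene Slc2a5 at 0.11 ± 0.0344 CPM per kb (SD, n = 7; 5.34th percentile). These low levels rest on few reads. Slc2a5 had between 5 and 25 counts per library, Crybb1 between 17 and 94, and Tmem119 between 87 and 276, whereas Cx3cr1 had between 27360 and 53890.

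**Figure D1:**
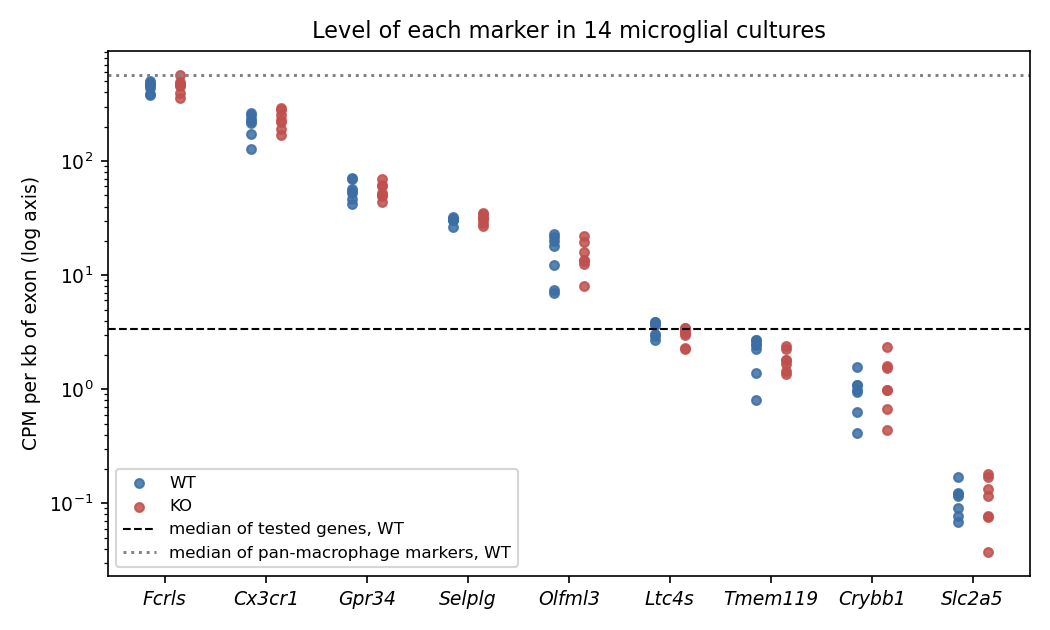
Level of the 9 markers in each of 7 WT (blue) and 7 KO (red) libraries, as TMM-scaled CPM per kb of exon length on a log axis. The dashed line is the median of all tested genes of WT (3.34 CPM per kb) and the dotted line that of the pan-macrophage markers (574 CPM per kb), and Tmem119, Crybb1 and Slc2a5 lie below the former in all libraries.

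The order of the markers was the same in KO and in WT. In WT, neighbours in that order had separate ranges except Tmem119 and Crybb1, of which Tmem119 was higher in 12 of the 14 libraries of both genotypes. In KO, the ranges of Ltc4s and Tmem119 overlapped as well, although Ltc4s was above Tmem119 within each of the 14 libraries. The order of Gpr34 and Selplg depended on the length used. Per kb of the longest transcript, Selplg (2314 bases instead of the 4272 bases of all its exons) was at 56.3 CPM per kb in WT, as was Gpr34, with overlapping libraries (49.3 to 60 and 42.6 to 71.4 CPM per kb), so these 2 genes could not be ordered.

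Other genes of the homeostatic program also covered a wide range of levels, but a smaller part of them was low. A list of 28 such genes, which does not share a gene with the 9, had 27 tested members, and 25 of them were above the median of all tested genes in WT. The tested members had a median of 53.7 CPM per kb in WT, and the highest was at 1632 CPM per kb. Siglech, a sialic acid binding lectin gene, was lowest at 1.15 ± 0.344 CPM per kb (SD, n = 7), above the WT means of Crybb1 and Slc2a5. The purinergic receptor gene P2ry12, another much used microglia marker, was at 15.8 ± 3.98 CPM per kb (SD, n = 7), and the transcription factor gene Sall1 at 16.9 ± 1.87 CPM per kb (SD, n = 7). P2ry12 and Sall1 thus lay close to Olfml3 in level. Genes of reactive and disease-associated microglia were also abundant, with a median of 188 CPM per kb over 22 genes in WT.

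The next question was how much the markers differed between cultures of 1 genotype. The spread was widest for the low markers Crybb1 and Slc2a5 and for Olfml3, and narrowest for Selplg. The coefficient of variation (CV) of CPM within genotype was 46.6% for Crybb1, 39.8% for Slc2a5 and 37.3% for Olfml3. It was 28.7% for Tmem119, 20.9% for Cx3cr1, 18.1% for Gpr34, 15.5% for Ltc4s, 12.9% for Fcrls and 7.82% for Selplg, against a median of 10.1% over all tested genes.

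Part of this spread is that of counting reads. The CV that read counting alone gives was 24.7% for Slc2a5, 14.7% for Crybb1 and 8.45% for Ltc4s, but 1.56% for Olfml3, 1.41% for Gpr34 and 0.48% for Cx3cr1. Set beside genes with a mean count within 1.5-fold of their own, Olfml3 was in the 99.6th percentile of CV, Gpr34 in the 96.7th and Cx3cr1 in the 96.4th. Fcrls was in the 87.6th, Crybb1 in the 80.9th, Tmem119 in the 77.1st and Selplg in the 77th percentile, so even Selplg, with the narrowest spread of the 9, lay above the median CV of 4.75% of genes counted as often. Slc2a5 was in the 64.1st percentile and Ltc4s in the 44.9th. All markers but Ltc4s thus varied more between cultures than the median gene of like count, Olfml3, Gpr34 and Cx3cr1 by the widest margin in percentile.

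Olfml3 had the following values. In KO, the lowest library was at 49.9, the median at 83.2 and the highest at 136 CPM. In WT, the lowest was at 42.8, the median at 111 and the highest at 142 CPM. A step separated 3 low libraries, WT replicate 1 (42.8 CPM), WT replicate 5 (45.7 CPM) and KO replicate 5 (49.9 CPM), from the other 11, the lowest of which was at 76.6 CPM.

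A single library, WT replicate 1, was low for most markers. It was the lowest of all 14 for 6 of the 9, namely Tmem119, Cx3cr1, Gpr34, Olfml3, Selplg and Crybb1, and among the 3 lowest for all 9. KO replicate 1 was among the 3 lowest for 7 of the 9 and lowest for Fcrls and Slc2a5. The summed pan-macrophage markers were at 18983 CPM in KO replicate 1, the lowest value, and at 20278 CPM in WT replicate 1. At the other end, KO replicate 5 was highest for Selplg, Slc2a5 and Crybb1, and WT replicate 6 was among the 3 highest for 5 markers.

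**Figure D2:**
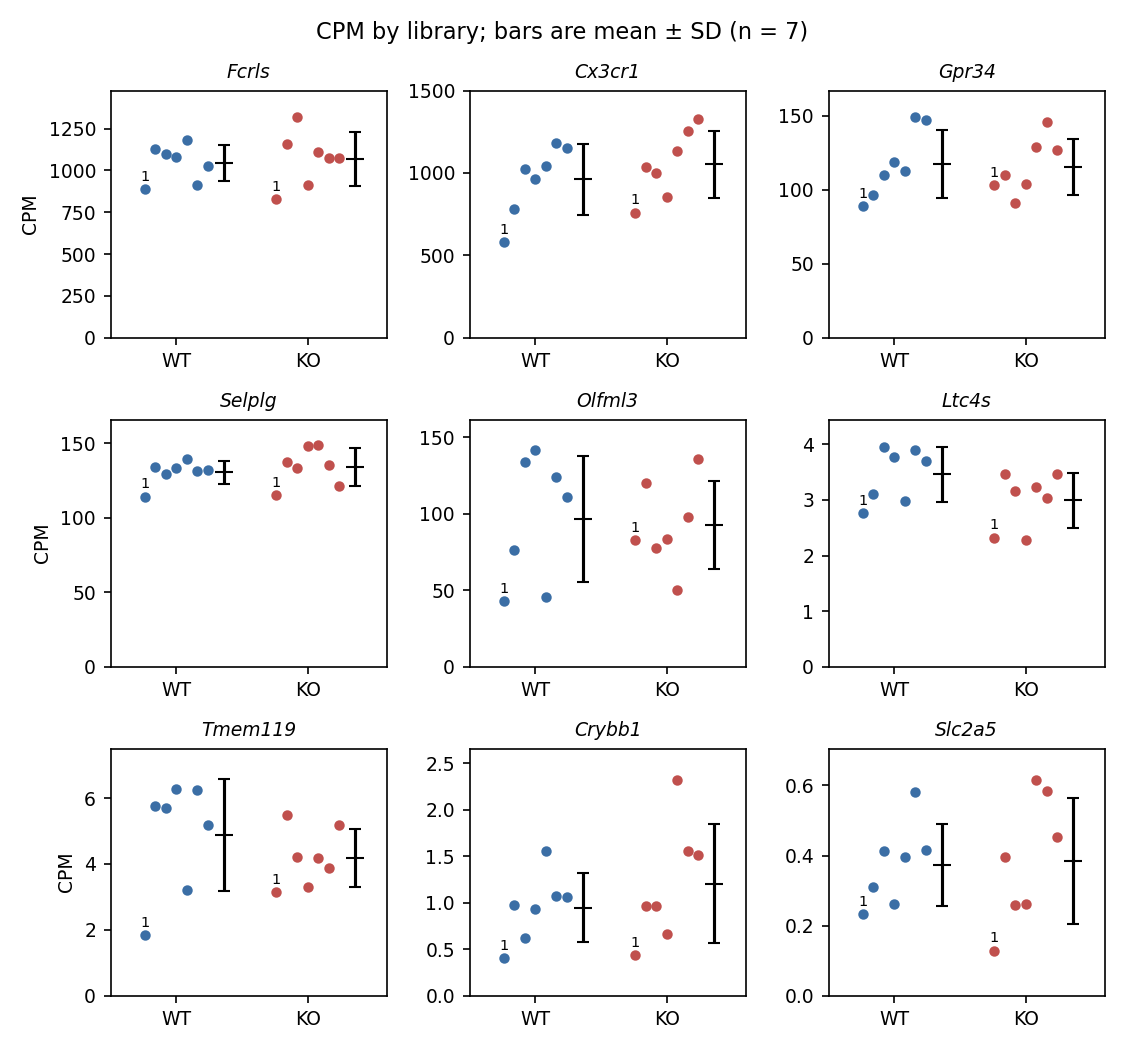
CPM of each marker in each of the 14 libraries, 1 panel per marker with its own axis from 0, with the mean and SD (n = 7) of each genotype as bars and the libraries of replicate 1 marked by that number. The KO and WT points overlap in all 9 panels, and WT replicate 1 is the lowest point for 6 of the 9 markers.

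The third question was whether the markers differed between TIMP2 KO and WT cultures. None of the 9 passed the test (edgeR, smallest adjusted p = 0.943) and 0 had an unadjusted p under 0.05, where 3 of all 15700 tested genes passed (0.0191%) and 529 (3.37%) had an unadjusted p under 0.05. DESeq2 likewise gave 0 of 9 at either threshold, against 0.0318% of 34581 and 2.04% of 34582 genes. DESeq2 was run without the filter on low counts, so its shares are over more genes than those of edgeR. The values of both genotypes overlapped for all 9 markers, whereas 0.0828% of all tested genes had separate groups. The log2 fold changes were positive for 5 and negative for 4, against 50.8% positive among all tested genes, and their median was 0.031 against 0.0016 over all tested genes. Tmem119 and Ltc4s had the lowest fold changes and Crybb1 the highest.

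Cx3cr1 was at 759 CPM in the lowest, 1039 CPM in the median and 1327 CPM in the highest KO library. In WT it was at 580, 1024 and 1185 CPM, and 4 of 7 KO libraries lay above the WT median. The log2 fold change was 0.13 (95% interval −0.20 to 0.46, edgeR adjusted p = 0.943). The ranges of the fractalkine receptor message thus overlapped, with both ends higher in KO. The fold of KO over WT had an interval of 0.872 to 1.38. Without WT replicate 1, the lowest library, the log2 fold change was 0.041, and it was 0.065 when scaled to the pan-macrophage markers. In 1 alternative, DESeq2 with the replicate number as a block, Cx3cr1 had an unadjusted p of 0.0271 (adjusted p = 1) at a log2 fold change of 0.14. There, 1.65% of 34582 genes had an unadjusted p under 0.05 and 0.181% of 14919 genes passed. With the same block in edgeR, 5.87% of 15700 genes and 0 of the 9 markers had an unadjusted p under 0.05. Cx3cr1 had an unadjusted p of 0.0674 in that edgeR fit, at a log2 fold change of 0.14.

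Gpr34 was at 91.1 CPM in the lowest, 110 CPM in the median and 146 CPM in the highest KO library, and at 88.9, 113 and 149 CPM in WT. Its log2 fold change was −0.023 (95% interval −0.29 to 0.25, edgeR adjusted p = 0.986). The range of this receptor gene in KO lay inside that in WT. Fcrls was at 828, 1075 and 1319 CPM in the lowest, median and highest KO library, and at 889, 1079 and 1182 CPM in WT. Its log2 fold change was 0.031 (95% interval −0.17 to 0.23, edgeR adjusted p = 0.974), and here the WT range lay inside that of KO.

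Selplg had the narrowest interval of the 9. It was at 115, 135 and 149 CPM in the lowest, median and highest KO library and at 114, 132 and 139 CPM in WT. The log2 fold change was 0.038 (95% interval −0.084 to 0.16, edgeR adjusted p = 0.953), and 5 of 7 KO libraries were above the WT median. WT replicate 1, at 114 CPM, stood apart from the other 6 WT libraries, which lay between 129 and 139 CPM. Without this library the log2 fold change was 0.011, as it was without KO replicate 5, and it was 0.014 without KO replicate 4, 0.069 without KO replicate 1 and 0.062 without KO replicate 7.

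Tmem119 was at 3.14 CPM in the lowest, 4.17 CPM in the median and 5.48 CPM in the highest KO library. In WT it was at 1.84, 5.69 and 6.27 CPM. None of the 7 KO libraries was above the WT median, a pattern that 2.74% of all tested genes had, and the WT group held both the lowest and the highest library. The log2 fold change was −0.22 (95% interval −0.72 to 0.28, edgeR adjusted p = 0.943). Without WT replicate 1, it was −0.36 (unadjusted p = 0.0504, adjusted p = 0.924), and without both libraries numbered 1 it was −0.31 (unadjusted p = 0.0942). With the level of the astrocyte markers as a covariate it was 0.011.

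Ltc4s was at 2.28, 3.16 and 3.46 CPM in the lowest, median and highest KO library and at 2.76, 3.71 and 3.96 CPM in WT. As for Tmem119, none of the 7 KO libraries was above the WT median. The log2 fold change was −0.21 (95% interval −0.47 to 0.057), with the smallest unadjusted p of the 9 (0.115, edgeR adjusted p = 0.943). It was −0.14 with the astrocyte markers as a covariate. KO replicates 1 and 4 were lowest and WT replicate 3 was highest.

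Olfml3, whose values are given with the spread, had a log2 fold change of −0.059 (95% interval −0.66 to 0.54, edgeR adjusted p = 0.985). A low library was present in both genotypes, so the groups covered nearly the same range. Crybb1 was at 0.434, 0.968 and 2.32 CPM in the lowest, median and highest KO library and at 0.403, 0.979 and 1.56 CPM in WT. KO replicate 5 was highest (2.32 CPM), and the medians were nearly equal. The log2 fold change was 0.35 (95% interval −0.38 to 1.08, edgeR adjusted p = 0.943), and it was between 0.11 (without KO replicate 5) and 0.52 (without WT replicate 5) when a library was left out, and 0.16 with the astrocyte markers as a covariate.

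Slc2a5 was at 0.128, 0.395 and 0.617 CPM in the lowest, median and highest KO library and at 0.233, 0.395 and 0.58 CPM in WT. Both medians were the same to 3 digits. The log2 fold change was 0.049 (95% interval −0.60 to 0.70, edgeR adjusted p = 0.988). The CV left after counting error was 31.3%, more than the 24.7% of counting itself.

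**Figure D3:**
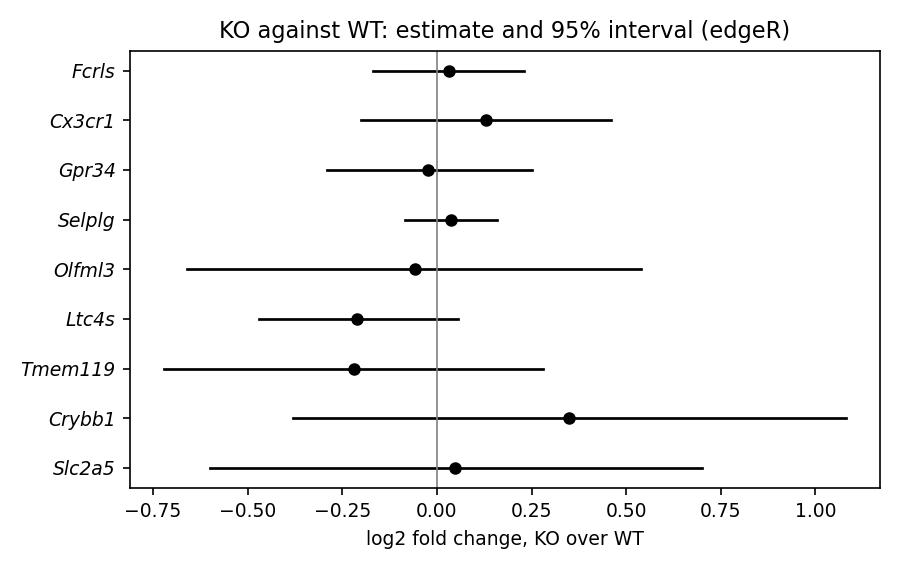
Log2 fold change of each marker, KO over WT, from edgeR with its 95% interval (n = 7 per genotype). All 9 intervals include 0, that of Selplg is the narrowest (−0.084 to 0.16) and that of Crybb1 (−0.38 to 1.08) the widest.

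The other genes of the program were in the same position. Of the 27 other homeostatic genes, 0 passed the test in edgeR or DESeq2, 20 had a positive and 7 a negative log2 fold change, and the median was 0.038. In edgeR, 1 of the 27 had an unadjusted p under 0.05, against 3.37% of all tested genes. It was Csf3r, the receptor of granulocyte colony stimulating factor, at 264 ± 12.1 CPM in KO and 239 ± 13.9 CPM in WT (SD, n = 7). Its log2 fold change was 0.15 (edgeR unadjusted p = 0.00215, adjusted p = 0.943). P2ry12 had a log2 fold change of 0.087 (SE 0.166) and Sall1 of 0.036 (SE 0.0669). Among the 15 pan-macrophage markers, 14 log2 fold changes were positive, with a median of 0.043, and among the 22 reactive genes 16 were positive, with a median of 0.063. None of these genes passed.

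All 9 tested astrocyte markers had a negative log2 fold change (median −0.64, 0 passed). Their sum was 29.7 to 138 CPM in KO and 34 to 261 CPM in WT, and the difference in mean log2 CPM was within the spread of the libraries (two-sided exact permutation test, n = 7 per genotype, p = 0.233, adjusted over 12 lists 0.449). Neuron markers were negative for 9 of 10 (median −0.30, sum 22.4 to 53.4 CPM in KO and 27.5 to 60 CPM in WT). Oligodendrocyte lineage markers were negative for 7 of 9 tested (median −0.33) and pericyte and fibroblast markers for 5 of 5 tested (median −0.34). The 8 proliferation genes were all negative (median −0.10), and endothelial markers were positive for 4 of 5 tested (median 0.12). None of these genes passed in edgeR. Border and perivascular macrophage markers were positive for 6 of 7 tested (median 0.14, sum 502 to 815 CPM in KO and 450 to 873 CPM in WT). The monocyte and neutrophil markers were positive for 4 of 4 tested (median 0.55, sum 4.73 to 23.7 CPM in KO and 2.66 to 15.9 CPM in WT). No marker was at 0 in all libraries, and their part in the fold changes of Tmem119 and Ltc4s was not tested beyond the astrocyte covariate.

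The last question was whether the markers varied together between cultures. Over the 14 libraries, with log2 CPM centred within genotype, 33 of the 36 pairs of markers correlated positively, with a median Pearson r of 0.51. After adjustment over the 36 pairs, 8 passed by Pearson's r and 9 by Spearman's rho (permutation tests). The replicate number was not a term in these correlations, which share the libraries, their depth and the low values of the libraries numbered 1. Without the 2 libraries farthest from the median of the first gene, 2 pairs passed.

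Cx3cr1 and Gpr34, both receptors, were the closest pair. Their r was 0.82 (permutation p = 6.30e-04, adjusted 0.00756) and their rho 0.88 (permutation p = 1.90e-04). Without KO replicate 1 and WT replicate 1, r was again 0.82 (permutation p = 0.00212, adjusted 0.0382). Tmem119 and Ltc4s had an r of 0.78 (permutation p = 7.00e-05, adjusted 0.00252), a rho of 0.77 (permutation p = 5.50e-04) and an r of 0.77 without the same libraries (permutation p = 0.00139, adjusted 0.0382). These are the 2 pairs that passed in both cases.

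Cx3cr1 also varied with Slc2a5 (r = 0.80, permutation p = 1.80e-04, adjusted 0.00324, rho = 0.82, permutation p = 8.70e-04), and Slc2a5 with Crybb1 (r = 0.81, permutation p = 0.00134, adjusted 0.0107, rho = 0.77, permutation p = 0.00462). Cx3cr1 with Crybb1 had an r of 0.78 (permutation p = 0.00178, adjusted 0.0107). These 3 are the genes whose promoter windows are shown above. Ltc4s passed with Cx3cr1 (r = 0.77, adjusted permutation p = 0.0107) but not with Slc2a5 or Crybb1. Without KO replicate 1 and WT replicate 1, r was 0.76 for Cx3cr1 with Slc2a5 (adjusted permutation p = 0.106). It was 0.64 for Slc2a5 with Crybb1 (adjusted permutation p = 0.187) and 0.54 for Cx3cr1 with Crybb1 (adjusted permutation p = 0.268), so none of the 3 pairs passed. Tmem119 and Cx3cr1, the most used markers of microglia, had an r of 0.67 (permutation p = 0.0211, adjusted 0.0671), which was 0.15 without those 2 libraries, and so rested on them. The neighbouring genes Tmem119 and Selplg had an r of 0.34 (permutation p = 0.175, adjusted 0.225), which was −0.55 without those libraries (permutation p = 0.0331, adjusted 0.17).

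**Figure D4:**
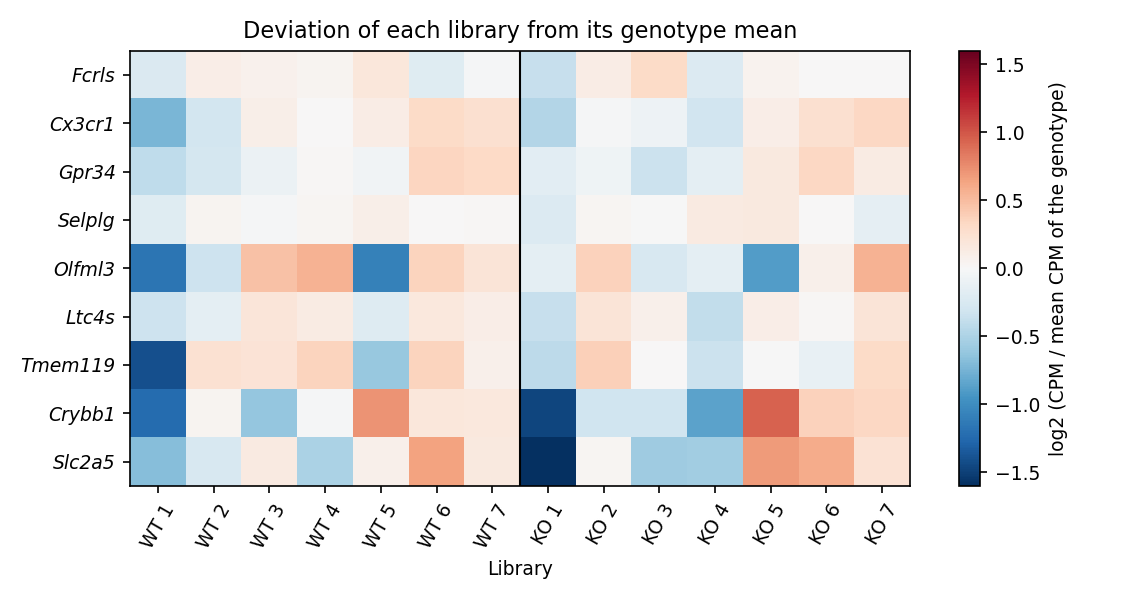
Log2 ratio of the CPM of each marker (rows) in each library (columns) to the mean CPM of that marker over the 7 libraries of the genotype, from blue (below the mean) to red (above it). WT replicate 1 lies below the mean for all 9 markers, and the darkest cells of Olfml3 are WT replicates 1 and 5 and KO replicate 5.

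Against the mean log2 CPM of each of the 12 lists, 9 of 108 relations passed adjustment (permutation tests), and 1 of these, Gpr34 with the other homeostatic genes, passed without the 2 libraries farthest from the list's median (r = 0.88, adjusted permutation p = 0.00972). Cx3cr1, Gpr34 and Slc2a5 varied with the other homeostatic genes, with an r of 0.90 for Cx3cr1 (adjusted permutation p = 0.00216), 0.85 for Gpr34 (adjusted permutation p = 0.00891) and 0.73 for Slc2a5 (adjusted permutation p = 0.00929). Fcrls and Selplg varied with the pan-macrophage markers, with an r of 0.80 (adjusted permutation p = 0.0177) and 0.74 (adjusted permutation p = 0.0464), but neither passed by Spearman's rho (0.64 for each, adjusted permutation p = 0.129). The receptors Cx3cr1 and Gpr34, in contrast, had an r of 0.41 and 0.085 with the pan-macrophage markers (adjusted permutation p = 0.362 and 0.844). The difference between these correlations was not tested.

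Crybb1 varied with the reference genes (r = 0.75, adjusted permutation p = 0.0377), which did not pass by rho (0.68, adjusted permutation p = 0.0977). Olfml3 held the other 3 relations that passed, all with lists named for other cells. Its r was 0.84 with the astrocyte markers (permutation p = 3.10e-04, adjusted 0.00891, rho = 0.78, permutation p = 0.00221) and 0.85 with the oligodendrocyte lineage markers (permutation p = 3.30e-04, adjusted 0.00891, rho = 0.82, permutation p = 6.10e-04). With the markers of border and perivascular macrophages it was −0.89 (permutation p = 5.20e-04, adjusted 0.00936, rho = −0.93, permutation p = 1.00e-04). Leaving out the 2 farthest libraries gave r values of 0.71, 0.73 and −0.87, and none of the 3 then passed the adjustment (permutation p = 0.0112, 0.00789 and 0.00385, adjusted 0.202, 0.17 and 0.17). Over the 11 libraries other than the 3 with low Olfml3, r was 0.64 with the astrocyte markers (permutation p = 0.0533) and −0.84 with the border macrophage markers (permutation p = 6.00e-04). The 3 relations of Olfml3 need not be separate. In mean log2 CPM, WT replicate 4 was highest for astrocyte (4.12) and oligodendrocyte lineage markers (3.59) and lowest for border macrophage markers (2.54). KO replicate 5 was lowest for astrocyte (1.24) and oligodendrocyte lineage markers (1.92). Correlation between the lists was not tested. Tmem119 had relations of the same sign with these lists, which did not pass by Pearson's r. Its r was 0.57 with the astrocyte markers (permutation p = 0.0436, adjusted 0.185), 0.65 with the oligodendrocyte lineage markers (permutation p = 0.0168, adjusted 0.125) and −0.72 with the border macrophage markers (permutation p = 0.0106, adjusted 0.0953). By Spearman's rho, that with the oligodendrocyte lineage markers passed (rho = 0.75, permutation p = 0.00301, adjusted 0.0464). WT replicate 4, highest for Olfml3 at 142 CPM, held the most astrocyte marker RNA (261 CPM) and the least border macrophage marker RNA (450 CPM), and WT replicate 5 held 34 CPM and 873 CPM of these. The border macrophage sum was mostly Mrc1 and Ms4a7, with WT means of 440 and 132 CPM, whereas Cd163 was at 0.483 CPM. Which cells held this RNA was not measured. With the level of the astrocyte markers as a covariate, the log2 fold change of Olfml3 between genotypes was 0.34 (unadjusted p = 0.0736, edgeR adjusted p = 1) instead of −0.059. Whether the Olfml3 reads came from microglia or from other cells of the cultures was not measured.

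**Figure D5:**
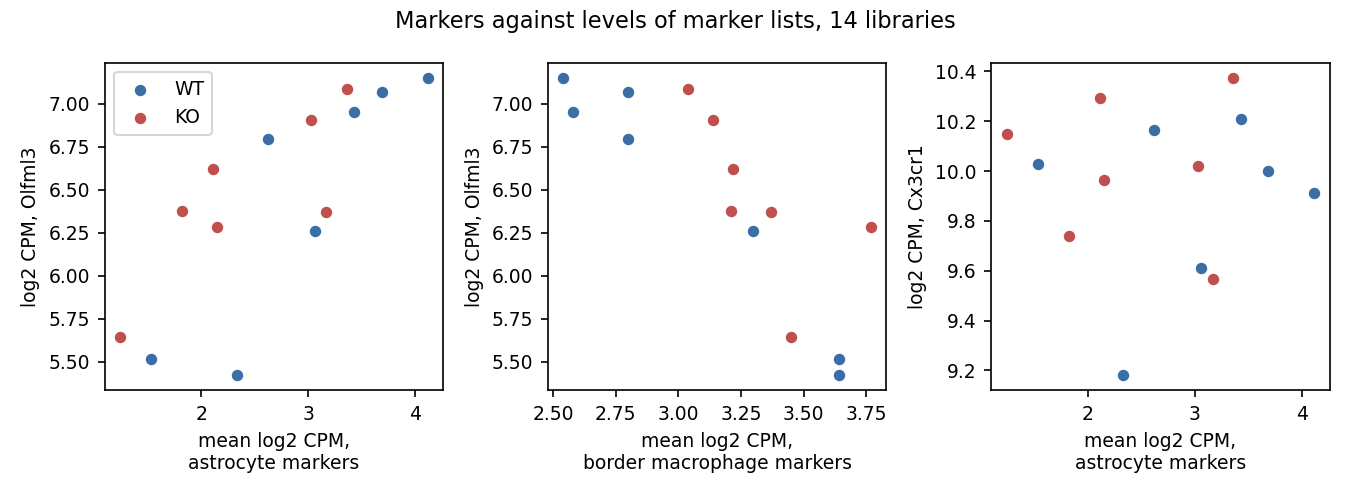
Log2 CPM of Olfml3 against the mean log2 CPM of the astrocyte markers (left) and of the border macrophage markers (middle), and log2 CPM of Cx3cr1 against that of the astrocyte markers (right), 1 point per library (7 WT in blue, 7 KO in red). Olfml3 is higher where the astrocyte markers are higher (r = 0.84) and lower where the border macrophage markers are higher (r = −0.89), while r was 0.10 for Cx3cr1 with the astrocyte markers.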

How the data were processed

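Poly(A) RNA of 14 primary microglia cultures, 7 TIMP2 KO and 7 WT, was sequenced as paired-end reads and mapped to GRCm38. The sample labels give the group and replicate number. The authors deposited whole-number read counts for each Ensembl gene, with no normalization. The submitters' processing notes name Trimmomatic 0.36, STAR 2.5.2b, featureCounts of Subread 1.5.2 and DESeq2. The annotation release and strand setting are not given in the sources used here. Symbols, positions and exon lengths came from the GENCODE annotation of GRCm38, to which 49056 of 49315 genes were matched. No count column was left out.

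Low genes were removed by filterByExpr at its settings of 10 counts and 15 in total. After TMM scaling, edgeR 4.0.16 (R 4.3.3) fitted quasi-likelihood models with genotype as the only term, two-sided, with Benjamini-Hochberg adjustment over 15700 genes and a threshold of 0.05. The study's methods model batch, but no label gives it, so it was not used here. Each total of 38875344 to 48070236 counted reads limits the precision of low genes, and the counting errors given cover counting only. Log2 CPM used a prior count of 1. Exon length is the union of all exons of a gene. Correlations used 100000 permutations within genotype (numpy 2.4.6), and lists were compared over all 3432 splits into 7 and 7. The method was tested on simulated data.

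The alternatives were RLE and upper-quartile factors, scaling to pan-macrophage markers, no filter, DESeq2 1.42.0, the replicate block, an astrocyte covariate, the longest transcript as length and leaving out each library. Leaving out both libraries numbered 1, and the Olfml3 relations without its 3 low libraries, were chosen after seeing the data. The text names the 9 markers, Timp2 and, for each marker, the 3 genes of most similar pattern. It also names some, but not all, of the genes that overlap a marker or have the smallest p or the highest level of a list. One gene of a list is not reported here. P2ry12, Sall1, Siglech, Itgam, Aif1, Cd68, Tyrobp and Tbp were named beyond this rule, with their values known. The 9 markers and the lists were chosen with earlier results of these data known.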

Additional observations from a re-analysis of the deposited data

Results flagged for a closer look

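Selplg was at 114 CPM in WT replicate 1, below the other 6 WT libraries by a gap that is large for a group of 7 (Dixon's test at the 95% level). Of the 18 groups looked at, 9 markers in each genotype, this was the only one, and chance flags about 1 in 20 groups.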

How the results depend on the processing

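With edgeR under all alternatives and each library left out, 0 of the 9 markers passed, as with DESeq2. The number of genes that passed was 3 in edgeR (4 without KO replicate 4), 11 with DESeq2 and 27 with DESeq2 and the replicate block. In the last of these 2 genes of the lists passed, Snap25 (log2 fold change −0.45, adjusted p = 0.0395) and F13a1 (0.56, adjusted p = 0.0301), against 0 in the main test, and Cx3cr1 had an unadjusted p of 0.0271 (adjusted p = 1). Whether the replicate numbers pair the libraries is unclear. Deviations of same-numbered libraries correlated above 0.1 in 3 of 7 pairs, most in number 5 (0.743) and number 2 (0.392), with a mean of 0.103, and 3 of 14 libraries correlated best with their own number, so the block was not taken into the main test. In edgeR the block lowered the SE of all 9 markers, for example of Cx3cr1 from 0.154 to 0.0685, but in DESeq2 it raised that of Ltc4s (0.127 to 0.151) and Slc2a5 (0.33 to 0.376). The edgeR replicate block gave 3 genes, and 921 instead of 529 at an unadjusted p under 0.05. That number was 999 without KO replicate 1, 995 without WT replicate 5 and 1325 without the filter. The longest transcript as length changed the ranks of 2 markers with equal rounded means. Some log2 fold changes turned their sign. Scaled to pan-macrophage markers, where the median of all genes was −0.059 against 0.0016 in the main test, Fcrls was at −0.036, Selplg at −0.027 and Slc2a5 at −0.026. With the replicate block, Olfml3 was at 0.014 (0.017 in DESeq2) and Slc2a5 at −0.0056 (−0.024 in DESeq2). With the astrocyte covariate, Tmem119 was at 0.011, Olfml3 at 0.34 and Slc2a5 at −0.03. Leaving out 1 library gave −0.027 to 0.082 for Fcrls, −0.089 to 0.042 for Gpr34, −0.18 to 0.054 for Olfml3 and −0.10 to 0.19 for Slc2a5, while the other 5 kept their sign. The CV of Tmem119 was 21.1% without WT replicate 1, and scaled to pan-macrophage markers that of Fcrls was 9.34% and that of Selplg 6.07%. The cause was not tested. Depth limits Slc2a5 and Crybb1 most.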

Other observations

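As a description with no test, the tested genes whose log2 CPM, centred within genotype, was most like that of each marker over the 14 libraries were as follows. For Cx3cr1, Pearson's r was 0.95 with Gm33858, 0.94 with Tmsb4x and 0.93 with Bach2. Gm33858 is the antisense gene that overlaps Cx3cr1 and may share its reads. For Gpr34, Pearson's r was 0.95 with Mlxipl, 0.94 with Arsb and 0.93 with Tgfa. For Fcrls, Pearson's r was 0.95 with Nova1, 0.95 with Fgd3 and 0.94 with Rab3il1. For Selplg, Pearson's r was 0.93 with Laptm5, 0.92 with Hist3h2ba and 0.90 with Gpr137. Laptm5 is itself one of the pan-macrophage markers. For Tmem119, Pearson's r was 0.90 with Pald1, 0.89 with Sv2a and 0.87 with Pcdhga3. For Olfml3, Pearson's r was 0.97 with Fmnl3, 0.97 with Itgb5 and 0.95 with Pmepa1. For Slc2a5, Pearson's r was 0.94 with Gm26912, 0.92 with Rogdi and 0.90 with Sec31b. For Ltc4s, Pearson's r was 0.89 with Ecscr, 0.88 with Rilpl1 and 0.86 with Slc8a1. For Crybb1, Pearson's r was 0.95 with Ptgs1, 0.95 with Ly86 and 0.94 with Lpcat4. All of these genes were picked for their r among 15700, so a high r is the result of the choice. None of them is one of the other 8 markers.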
